A study of Mus musculus with 3 samples.

Results

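RBFOX2 crosslinked to 3209 places in hepatocyte RNA that lie inside annotated retained introns, out of 87021 clusters in the deposited list (3.69%, Wilson 95% interval 3.56 to 3.81%). A cluster was counted here when its midpoint fell, on its own strand, inside an exon of a GENCODE M21 transcript of type retained intron of a protein-coding gene and inside no exon of a transcript of any other type. For all but 11 clusters that point lay in an intron of a transcript of another type. The annotation chose these clusters. Their counts, motifs and positions were not used, and whether the introns were retained in these hepatocytes was not measured.

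The study crosslinked primary hepatocytes, the parenchymal cells of the liver, to map RNA contacts of the splicing factor RBFOX2 by eiCLIP, in which the start of each cDNA marks the crosslinked nucleotide. The cells came from livers of C57BL6/J mice on control diet, were plated overnight and received 150 mJ/cm2 of UV light. The labels place all 3 libraries in 1 group, made with the same RBM9 antibody from Bethyl Laboratories and with no knockout, treatment or time point. The authors pooled the libraries before they called clusters, so no value below has a spread between libraries and no test was possible. Every interval is a 95% interval that covers counting error only. Clusters of the same intron are not independent of each other.

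RBFOX proteins recognise (U)GCAUG in RNA, and where they bind beside an exon helps to set whether that exon is spliced in or skipped. A retained intron stays in an otherwise spliced transcript, which may be held in the nucleus, spliced later or degraded. Genes for splicing factors are known for this kind of transcript, which lets them adjust their own output.

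The sequences below surround GCATG, the DNA form of the core motif, at the highest retained-intron cluster of each of the leading genes that held it there. They are shown because these clusters hold much of the crosslinking in their introns, and each is the motif closest to the cluster 5′ end that had retained-intron sequence around it. They run 5′ to 3′ on the strand of the gene, capitals mark GCATG, and they were read from GENCODE M21 transcripts placed on GRCm38. In the order listed, they lie at chr8:45784907-45784961 (plus strand), chr2:162932675-162932729 (plus), chr19:3877585-3877639 (plus), chr14:24494118-24494146 (plus), chr5:33731804-33731858 (plus), chr7:45382600-45382628 (minus), chr15:79303336-79303386 (minus), chr7:90194622-90194663 (plus), chr9:40802131-40802185 (plus), chr12:76572753-76572807 (plus), chr3:126778954-126779008 (plus) and chr17:42826156-42826210 (minus).
Sorbs2: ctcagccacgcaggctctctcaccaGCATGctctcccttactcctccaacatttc
Srsf6: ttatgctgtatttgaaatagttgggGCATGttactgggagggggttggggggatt
Chka: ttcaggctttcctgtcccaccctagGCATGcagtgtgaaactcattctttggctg
Rps24: ctctgatgctttGCATGttggcttttaga
Fgfr3: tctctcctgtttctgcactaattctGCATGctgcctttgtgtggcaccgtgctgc
Snrnp70: gctccccaaagtGCATGgattggggttca
Pla2g6: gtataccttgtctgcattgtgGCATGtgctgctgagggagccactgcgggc
Picalm: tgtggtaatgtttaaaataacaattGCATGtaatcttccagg
Hspa8: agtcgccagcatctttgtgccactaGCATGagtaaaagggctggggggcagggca
Plekhg3: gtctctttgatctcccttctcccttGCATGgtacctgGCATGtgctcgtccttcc
Camk2d: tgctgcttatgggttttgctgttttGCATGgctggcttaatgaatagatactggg
Cd2ap: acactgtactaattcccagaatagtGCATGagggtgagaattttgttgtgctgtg

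In Rps24, Fgfr3, Snrnp70, Picalm, Camk2d, Cd2ap and at the first of the motifs in Plekhg3 a T comes directly before GCATG, which gives the longer RBFOX motif TGCATG. In Sorbs2, Srsf6, Chka, Pla2g6 and Hspa8 another base does, though the window of the Srsf6 cluster also held TGCATG outside the stretch shown. The Sorbs2 motif started 32 nt downstream of the cluster 5′ end, the Srsf6 motif 17 nt downstream and the Chka motif 12 nt upstream. In Snrnp70 and Plekhg3 it started 3 nt upstream, and in Hspa8 1 nt upstream. The other motifs started 58 nt downstream in Picalm, 47 in Fgfr3, 38 in Camk2d, 16 in Rps24 and 8 in Cd2ap, and 29 nt upstream in Pla2g6. The Picalm cluster is 25 nt wide, so its motif lay past the end of the cluster.

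The 3209 clusters summed to 89834 counts, or 3.15% of the 2850863 counts in the whole list, where a count was taken as 1 cDNA start pooled over the libraries. Counts per cluster ran from 10, the minimum of the list, to 1885, with a median of 18 (quartiles 13 and 26). At the minimum were 251 clusters, and 74 had 100 counts or more. Cluster width had a median of 19 nt. Of the clusters, 426 (13.3%, 12.1 to 14.5%) reached 39 counts, the value that marks the top 10% of the list, beside 10.2% of all clusters. The same share was 7.89% (7.65 to 8.14%) among the other intronic clusters of protein-coding genes, 11.1% (10.5 to 11.7%) in coding sequence and 18.7% (17.99 to 19.5%) in 3′ UTRs. High counts were therefore more frequent than in other intronic clusters and less frequent than in 3′ UTRs, by intervals that did not overlap. RNA abundance of the introns was not measured, and its part in these counts was not tested.

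The clusters lay in 1565 genes. GENCODE M21 gave 9075 protein-coding genes some sequence found only in retained-intron transcripts, so 17.2% of them held a cluster there, and 27.6% of the 5661 that had a cluster anywhere. Of the genes, 996 had 1 such cluster, 449 had 2 to 4 and 120 had 5 or more. The counts were concentrated: the 10 genes with the highest sums held 21930 counts, 24.4% of the total, in 290 clusters. Of the 2133 introns that held a cluster, 1686 held 1 and 66 held 5 or more.

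Sorbs2, which encodes an adaptor protein that links signalling proteins to the actin cytoskeleton, led by a wide margin with 103 clusters and 8394 counts in 6 introns. These made up 28.3% of all counts in the gene. Its highest cluster, with 1885 counts, lay in intron 14 of 1642 nt, 1321 nt past the 5′ splice site and 320 nt before the 3′ splice site. In that intron 9 clusters held 2810 counts. The 5′ UTR intron 3 of the same transcript, of 5284 nt and spanned whole by a retained-intron transcript, held 41 clusters and 3278 counts. There the 3 highest clusters had 549, 533 and 440 counts and lay 4375, 5233 and 5117 nt from the 5′ splice site, in the 3′ part of the intron. GCATG was in 17 of the Sorbs2 windows, of which all but 2 could be searched.

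Chka, which encodes choline kinase alpha of phosphatidylcholine synthesis, had 64 clusters and 4605 counts, 63.4% of the counts in the gene. An intron of 6209 nt held 30 of them with 3283 counts. The highest had 1499 counts 1897 nt past the 5′ splice site, with GCATG in its window, followed by 288 counts at 2171 nt and 224 counts at 2657 nt with none. A second intron, of 6243 nt, held 23 clusters and 976 counts. Both introns are read into past the 5′ splice site by a retained-intron transcript that ends inside them, which limits where clusters could be counted.

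Srsf6, an SR protein that binds exons and helps to define them, had 13 clusters and 2573 counts, which were 86.5% of all counts in the gene. Intron 2, of 672 nt and retained whole, held 9 clusters and 2410 counts. In order from the 5′ splice site their counts were 119, 38, 13, 115, 24, 59, 330, 1669 and 43. The cluster of 1669 counts lay 104 nt before the 3′ splice site and had GCATG at 2 places in its window. It alone held 64.9% of the gene's retained-intron counts. The 3 other high clusters, of 330, 119 and 115 counts, had none.

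Snrnp70, which encodes a protein of the U1 snRNP that recognises 5′ splice sites, had 40 clusters and 1571 counts, 65.8% of the counts in the gene. Of these, 33 clusters and 1437 counts lay in a single intron of 2306 nt, retained whole by an annotated transcript. They were spread along it from 24 to 2225 nt past the 5′ splice site. The highest had 424 counts at 555 nt, with TGCATG, and GCATG was in 11 of the 33 windows. The next highest had 92 counts.

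Rps24, a protein of the small ribosomal subunit, had 18 clusters and 1290 counts, 84.9% of the counts in the gene. Intron 5 of 1360 nt held 12 of them with 1082 counts. The highest had 640 counts 70 nt past the 5′ splice site, with TGCATG in its window. The others there had from 11 to 85 counts. In both Srsf6 and Rps24 most crosslinking of the gene was thus inside introns that an annotated transcript keeps, and in each a single cluster held most of the intron's counts.

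**Figure D1:**
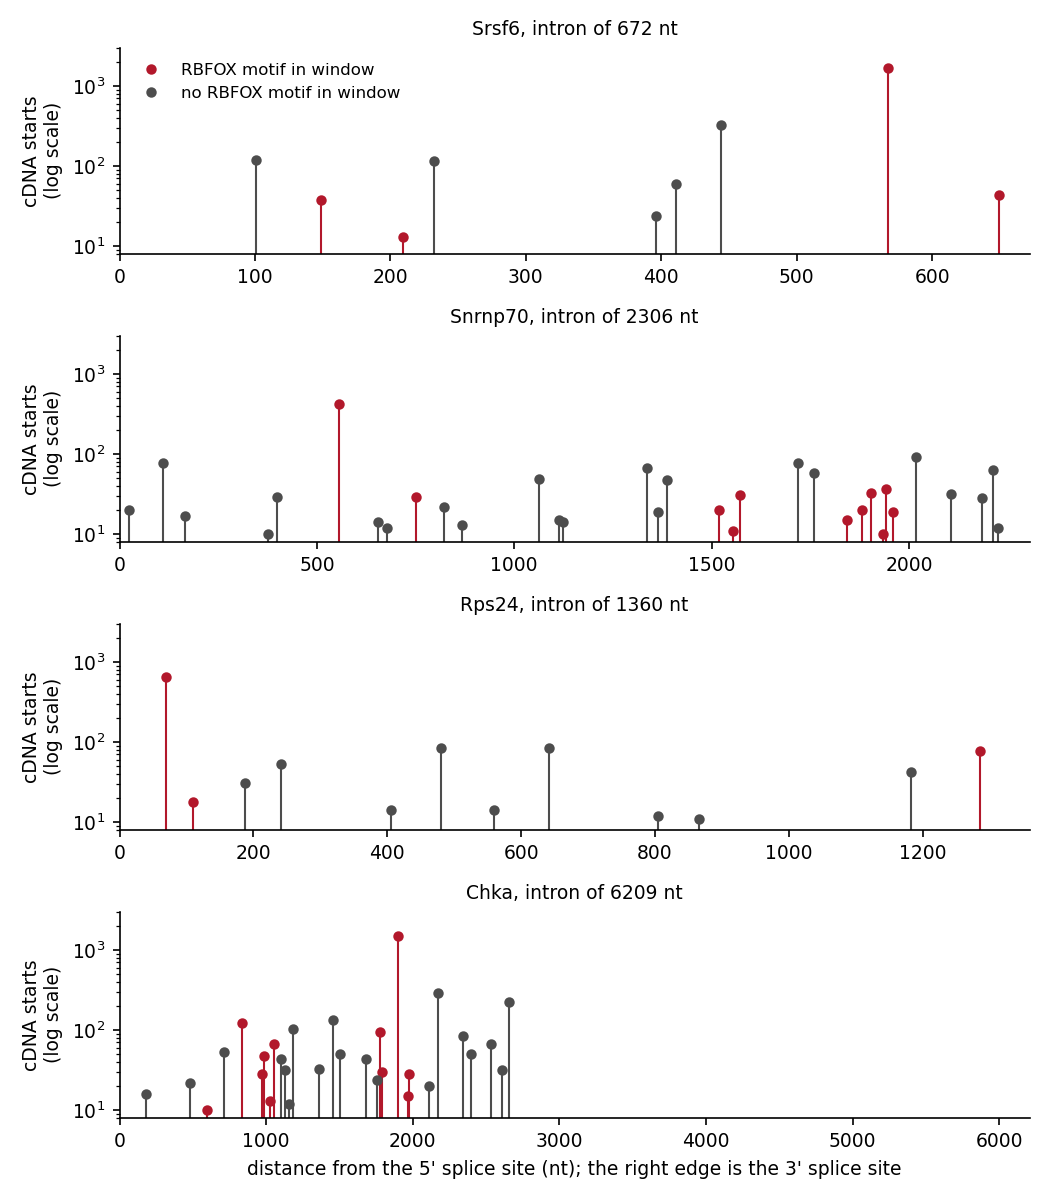
Retained-intron clusters along 1 intron each of Srsf6, Snrnp70, Rps24 and Chka, with the distance of the cluster midpoint from the 5′ splice site in nt on the horizontal axis and the pooled cDNA starts of the cluster on a logarithmic vertical axis. Each point is 1 cluster, red where GCATG was in its window. The highest cluster of each intron (1669, 424, 640 and 1499 counts) is red, and in Chka no cluster could be counted past the end of the retained-intron transcript.

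Among the other leading genes, Pdcd6ip, whose product ALIX acts in endosomal sorting, had 1 cluster of 781 counts, 89 nt past the 5′ splice site of an intron of 2186 nt. Its window could not be searched, because transcript sequence did not cover it whole. Picalm, a clathrin assembly protein, had 18 clusters and 755 counts, of which intron 18 of 1358 nt held 11 clusters and 616 counts. All 7 Picalm windows with GCATG were in that intron, out of 10 searched there. Plekhg3 had 14 clusters and 721 counts, with 9 clusters and 558 counts in an intron of 501 nt. Fgfr3, a fibroblast growth factor receptor, had 8 clusters and 650 counts. In its intron 8 of 1290 nt 6 clusters held 624 counts, from 10 to 431, so that 1 cluster held most of them. Hspa8, a chaperone of the cytosol, differed in that its 11 clusters and 590 counts were spread over several introns. Its counts were 103, 16, 13, 229, 11, 107, 12, 44, 20, 12 and 23 from the 5′ to the 3′ end of the gene. Camk2d with 19 clusters, Cd2ap and Ube2d3 with 18 each, Nedd4l with 16 and Rbpms with 15 were among the 10 genes with most clusters, and their highest clusters had 149, 88, 46, 63 and 34 counts. In Rbpms these clusters made up 4.04% of the gene's counts, so a gene with many clusters elsewhere could rank high here.

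Of the genes that the study examined by name, Pla2g6, a phospholipase, had 6 retained-intron clusters. Their counts were 12, 10, 305, 12 and 28 in intron 9 of 1607 nt, in genomic order, and 60 in intron 8. GCATG was in all 3 windows that could be searched. At the cluster of 305 counts the exon of the retained-intron transcript lay inside intron 9 and crossed neither of its splice sites. It does not annotate that intron as retained. Sec31a, of the COPII coat, had 3 clusters of 33, 27 and 22 counts. Osbpl9, an oxysterol-binding protein, had 1 cluster of 10 counts. Ptbp2, a splicing repressor, had 2 clusters of 14 and 15 counts, neither with GCATG. Scarb1, Numb and Rbfox2 had none.

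By gene function, genes for splicing and for ribosomes held retained-intron clusters more often than the 17.2% of all genes with retained-intron sequence. Of 15 genes for SR and SR-related proteins, called SR protein genes here, 11 did (73.3%, 48.0 to 89.1%). Those 11 take in the SR-related Srrm1, Srrm2, Son, Acin1, Tra2a and Tra2b. After Srsf6 came Srsf3 with 11 clusters and 314 counts, Srsf11 with 10 clusters and 302 counts, and the spliceosome-associated Srrm2 with 3 clusters of 287 counts in all. In Srsf3 these clusters were 95.2% of the counts in the gene, with the highest (136 counts) in an intron of 756 nt. The share was 58.3% (32.0 to 80.7%) for splicing kinases and cyclins, led by Ccnl2 with 9 clusters and 466 counts. It was 54.2% (35.1 to 72.1%) for hnRNP genes, among them Hnrnpa2b1 with 7 clusters and 110 counts, and the same for RNA helicases, among them Ddx39b, Eif4a2 and Eif4a1. For snRNP, U1-linked and spliceosome genes it was 48.7% (33.9 to 63.8%), and for tissue splicing regulators 47.4% (27.3 to 68.3%), where Mbnl1 had 8 clusters and 142 counts. The intervals of these 6 families lay above the value of all genes.

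Ribosomal protein genes held such a cluster in 34 of 63 cases (54.0%, 41.8 to 65.7%). After Rps24 the highest sums were in Rps12 (9 clusters, 241 counts), Rpl10 (5 clusters, 158 counts) and Rpl3 (4 clusters, 135 counts). Their retained-intron sequence is short, and they had 1.75 clusters per kb of it, close to the 1.61 per kb of the SR protein genes. The hnRNP genes had 0.910 per kb, snRNP, U1-linked and spliceosome genes 0.806, RNA helicases 0.748, splicing kinases and cyclins 0.741 and tissue splicing regulators 0.333. Over all genes there were 0.202 per kb. Among 6 genes with well-known regulated retention, 4 held a cluster. Ogt, the enzyme that adds O-GlcNAc to proteins, had 12 clusters and 463 counts, with its highest (176 counts) 115 nt before the 3′ splice site of an intron of 1767 nt. Mdm4 had 4 clusters, Clk4 2 and Clk1 1, and Clk1 and Clk4 are also in the kinase list.

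In genes of liver function, shares of genes with a cluster were nearer to that of all genes, but densities per kb were not in every list. Of lipoprotein and cholesterol genes with retained-intron sequence, 7 of 27 held a cluster (25.9%, 13.2 to 44.7%), and of plasma protein genes 5 of 18 (27.8%, 12.5 to 50.9%). Among those 7 were Pla2g6, Sec31a and Osbpl9, which the study named as RBFOX2 targets with the help of these same eiCLIP data. Pla2g6 alone had 427 of the 587 counts of that list. The share and density of the lipoprotein and cholesterol list are thus partly set by these data. Cytochrome P450 and urea cycle genes and nuclear receptors each had 5 of 16 (31.3%, 14.2 to 55.6%). All 4 intervals held 17.2%. Per kb of retained-intron sequence, plasma protein genes had 0.873 clusters, cytochrome P450 and urea cycle genes 0.432, lipoprotein and cholesterol genes 0.318 and nuclear receptors 0.204, beside 0.202 over all genes. All 18 of these plasma protein genes, which hepatocytes express, had a cluster somewhere in the gene. Ftcd, a liver enzyme of histidine breakdown outside these lists and chosen after its values were seen, had 7 clusters and 517 counts in an intron of 297 nt. Fn1, which encodes fibronectin, had 11 clusters and 227 counts, and Cp, which encodes the copper carrier ceruloplasmin, had 6 and 111. Chromatin regulators stood between at 34.9% (22.4 to 49.8%), led by Setd5 with 6 clusters and 210 counts. So did insulin and MAP kinase signalling genes at 37.8% (24.1 to 53.9%), led by the insulin receptor gene Insr with 12 clusters and 498 counts and by Tsc2 with 5 and 195.

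These shares moved with how many genes of a family were crosslinked at all. Set against genes with a cluster anywhere, the share of all genes was 27.6%, that of SR protein genes 78.6%, that of ribosomal protein genes 55.7%, that of hnRNP genes 54.2% and that of lipoprotein and cholesterol genes 30.4%. Expression level and the depth of annotation of each gene were not measured, and their part in these shares was not tested.

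**Figure D2:**
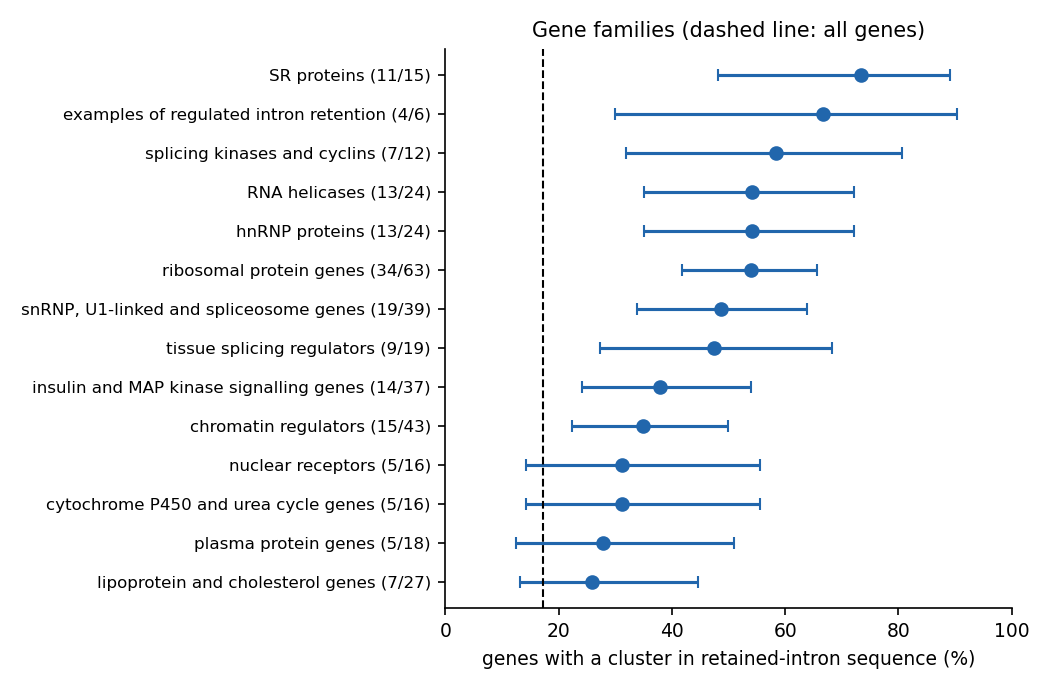
Share of genes with at least 1 retained-intron cluster in each of 14 gene lists, in percent of the genes that have retained-intron sequence (both numbers in parentheses). Points are shares, bars are Wilson 95% intervals, and the dashed line is the 17.2% of all genes. The SR protein list, which takes in SR-related proteins, is highest at 73.3%, and the 4 lowest lists have intervals that hold the dashed line.

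A retained-intron transcript spanned the whole intron around 1366 clusters (42.6%, 40.9 to 44.3%). Around 1203 clusters (37.5%) it ran past the 5′ splice site and ended inside the intron, and around 589 (18.4%) it began inside the intron and ran into the 3′ splice site. Around 9 clusters different transcripts crossed each end, and around 31 no retained-intron transcript crossed either splice site. The place of an intron was read from the transcript that has the shortest intron around the cluster. Introns between coding exons of that transcript held 2567 clusters (80.0%, 78.6 to 81.3%), its 5′ UTR introns 223 and its 3′ UTR introns 193. A 3′ UTR intron of that transcript can lie inside the coding part of another transcript of the gene. For another 215 the shortest intron came from a transcript without coding sequence, though a coding transcript can have a longer intron there. A further 11 lay outside every intron of another transcript type. The shortest intron around each of the other 3198 clusters had a median length of 1562 nt (quartiles 613 and 3840 nt), from 71 to 218273 nt.

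To see how often such introns were contacted, introns without any other exon in them were counted whole. Of 7270 introns retained whole, 778 held a cluster (10.7%, 10.01 to 11.4%), beside 9.25% (9.07 to 9.44%) of 93442 introns outside retained-intron transcripts in genes that have such transcripts. Retained introns are short, so the 2 kinds were also compared by length. Below 500 nt, 8.55% (7.80 to 9.36%) of retained and 3.17% (2.97 to 3.38%) of other introns held a cluster. Between 500 and 1000 nt these were 13.9% and 5.79%, between 1000 and 2000 nt 15.9% and 7.48%, and between 2000 and 5000 nt 19.0% and 12.3%. In all 4 length classes the intervals of the 2 kinds did not overlap. Only 10 retained introns were from 5000 to 10000 nt long, and 41 of their 42 clusters lay in intron 3 of Sorbs2. Among retained introns, those with a cluster had a median length of 424 nt and those without 240 nt.

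Per length of intron, retained introns held 0.303 clusters per kb (Poisson interval 0.286 to 0.321) and the others 0.0552 per kb (0.0544 to 0.0561). Below 500 nt the densities were 0.525 and 0.158 per kb, and from 2000 to 5000 nt 0.176 and 0.0671 per kb. Over all retained-intron sequence against all other intronic sequence of the same 9024 genes, the densities were 0.202 and 0.0564 per kb, a ratio of 3.57. Of 4967 genes with an intronic cluster of either kind, 1450 (29.2%) had the higher density in retained-intron sequence and 3517 in the rest. The rest amounts to 549524 kb against 15851 kb of retained-intron sequence. Only 1565 genes held a retained-intron cluster at all, so most of the 3517 had none and fell there for that reason. The split therefore cannot show how the densities compare within genes. The pooled ratio was 2.74 without the 300 nt beside exons and 3.41 without Sorbs2, Chka and Snrnp70.

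**Figure D3:**
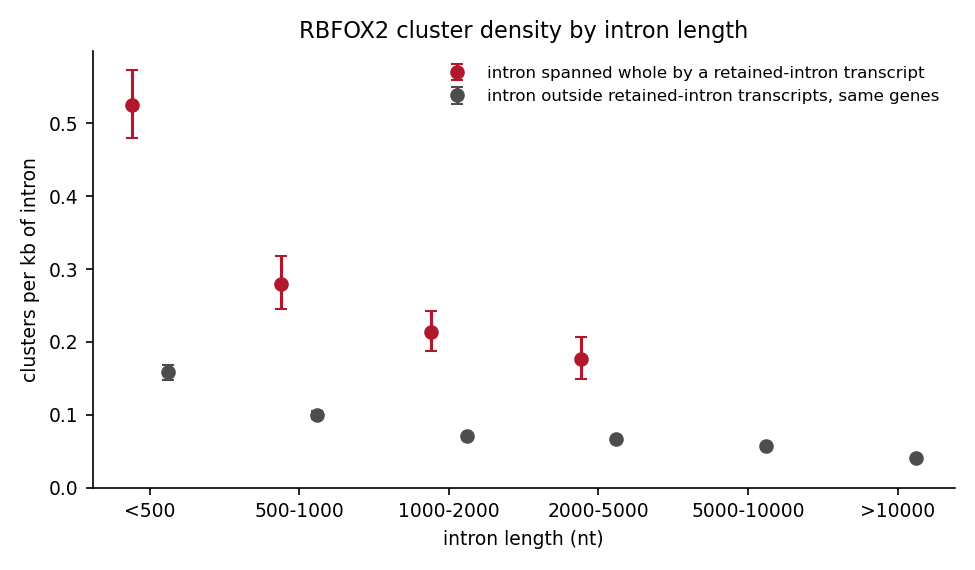
Clusters per kb of intron (vertical axis) by intron length in nt (horizontal axis), for introns spanned whole by a retained-intron transcript (red) and for introns outside such transcripts (grey). Bars are Poisson 95% intervals for counting error, and length classes with fewer than 100 introns are not drawn. Retained introns are above the others in each of the 4 classes drawn for both, by 0.525 against 0.158 per kb below 500 nt.

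The distance to the nearest splice site had a median of 207.5 nt, and 1883 of 3198 clusters (58.9%) lay within 300 nt of one, 1313 of the 5′ and 1121 of the 3′ splice site. Introns retained whole allow a count of the bases available. In the first 50 nt past the 5′ splice site there were 0.531 clusters per kb (0.458 to 0.613), and in the last 50 nt before the 3′ splice site 0.433 (0.367 to 0.507). Beyond 1000 nt the densities were 0.160 (0.1005 to 0.243) on the side of the 5′ splice site and 0.190 (0.124 to 0.278) on the other. Introns outside retained-intron transcripts had 0.159 and 0.135 per kb in the outermost 50 nt and 0.0511 and 0.0384 beyond 1000 nt. These values pool introns of all lengths, and the bins near a splice site take in the short introns, which were denser throughout, whereas those beyond 1000 nt come from long introns alone. Within a length class of introns retained whole, the intervals of both ends overlapped those of the rest, which does not show equal densities. The first 50 nt were above the rest in each of the 4 classes below 5000 nt. They had 0.350 beside 0.265 per kb from 500 to 1000 nt and 0.197 beside 0.174 from 2000 to 5000 nt. Below 500 nt the first 50 nt had 0.630 clusters per kb (0.533 to 0.740), the last 50 nt 0.479 (0.395 to 0.576) and the rest of the intron 0.496 (0.435 to 0.562). From 1000 to 2000 nt the values were 0.329 (0.180 to 0.552), 0.282 (0.146 to 0.493) and 0.206 (0.180 to 0.235), with 14 and 12 clusters behind the first and second. In the far more numerous other introns both ends were above the rest in each of the 4 length classes below 5000 nt, by intervals that did not overlap. From 1000 to 2000 nt, for example, they had 0.156 (0.132 to 0.183) and 0.117 (0.0968 to 0.141) per kb beside 0.0658 (0.0627 to 0.0690).

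Along the relative length of introns retained whole, the first 10% held 12.8% (11.02 to 14.8%) of their 1171 clusters, the last 10% held 11.3% (9.59 to 13.2%), and the part from 50 to 60% of the length, the lowest, held 8.37% (6.92 to 10.1%). In the other introns the first 10% held 14.3% (13.8 to 14.8%) and the last 9.08% (8.66 to 9.52%). The last 10% thus held a larger share in retained introns by intervals that did not overlap, whereas those of the first 10% did. These shares pool all lengths, with a median of 257 nt for retained and 1154 nt for other introns. They cannot separate the kind of intron from its length. Below 500 nt the last 50 nt of retained introns had 0.479 clusters per kb beside 0.496 in the rest. In other introns of that length these values were 0.183 and 0.135. In each class from 500 to 5000 nt the last 50 nt were above the rest in both kinds, in retained introns by overlapping intervals.

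GCATG was searched on the strand of the cluster, in a window of the cluster and 50 nt on each side. Of the 3209 clusters, 2960 had a window covered whole by annotated transcript sequence and 249 did not. The motif was in 761 windows, or 25.7% (24.2 to 27.3%). Cluster-free windows of the same lengths, tiled over the retained-intron sequence of the genes with such clusters, held it in 13.3%, which gave a ratio of 1.94. At a fixed length, with 50 nt on each side of a central base, cluster-free windows held it in 9.85% and windows centred on the cluster midpoint in 20.9%. Windows within the same stretch of retained sequence gave 24.4% beside 12.6%. Of the windows with GCATG, 626 had 1, 107 had 2 and 28 had 3 or more.

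Related motifs were searched on the same strand and in the same windows. TGCATG, which contains GCATG, was in 14.5% (13.3 to 15.8%) of cluster windows and in 5.21% of cluster-free ones, a ratio of 2.79. GCACG, a weaker RBFOX site, was in 4.56% and 2.71%. CATGC, which overlaps GCATG where a C follows, was in 16.5% and 12.4%. A T came before 486 of 931 GCATG occurrences in cluster windows (52.2%, 49.0 to 55.4%) and before 39.2% (37.8 to 40.7%) of 4488 in cluster-free retained sequence. Windows of neighbouring clusters can overlap, so the same motif can be counted in several of them. The interval takes all 931 as separate motifs.

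Among all hexamers found in at least 30 cluster windows of that fixed length, CGCATG and TGCATG had the highest ratios to cluster-free windows. TGCATG was in 11.5% of the windows beside 3.799%, a ratio of 3.03. CGCATG was rare, in 1.60% beside 0.448%. GCATGC followed at rank 6 with 7.40% beside 2.56%. Of the 25 leading hexamers, 3 held GCATG and 15 held GGG, such as GGTGGG in 9.49% beside 3.64% of windows. CGTGAT, at rank 5 with 1.15% beside 0.400%, is the end of ACGTGAT, 1 of 3 heptamers that resemble the start of the library adaptor. Such a heptamer lay just downstream in 53 of 3141 retained-intron clusters searched (1.69%), compared with 46.7% of the searched clusters with no gene on their strand. The motif share was 25.98% without them.

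The share with GCATG was higher at higher counts. It was 20.7% (17.2 to 24.7%) at 10 to 11 counts, 20.1% (17.4 to 23.2%) at 12 to 15, 23.6% (20.2 to 27.5%) at 16 to 19, 24.8% (21.7 to 28.2%) at 20 to 29 and 38.9% (35.1 to 42.9%) at 30 or more. The first 4 bins had overlapping intervals and the last stood above all of them. Cluster-free windows of the same lengths stayed between 12.5 and 14.4%. In the top 10% of counts the share was 42.6% (37.8 to 47.5%), and of the 72 searched clusters with 100 counts or more, 42 held the motif (58.3%, 46.8 to 69.0%).

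**Figure D4:**
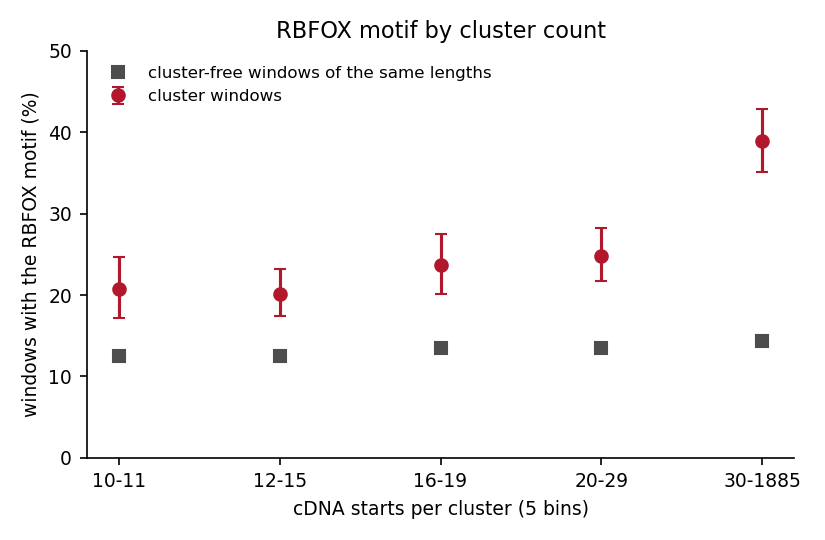
Share of retained-intron cluster windows with GCATG, the RBFOX motif, in percent (vertical axis) in 5 bins of the cluster count (horizontal axis), with Wilson 95% intervals, and the share in cluster-free windows of the same lengths (grey squares). The cluster windows go from 20.7% in the lowest bin to 38.9% in the highest, and the grey squares stay between 12.5 and 14.4%.

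The motif share had overlapping intervals at all distances from the splice sites. It was 25.2% (23.2 to 27.3%) within 300 nt of a splice site, 27.0% (24.1 to 30.1%) from 300 to 1000 nt and 24.9% (20.99 to 29.4%) beyond. By intron length it ran from 22.3% above 10000 nt to 27.9% between 5000 and 10000 nt. It was 23.8% (21.6 to 26.2%) where the whole intron was retained and 29.01% (26.4 to 31.8%) where the transcript ran past the 5′ splice site only, and these intervals did not overlap.

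By gene list, GCATG was in 4 of 10 searched windows of lipoprotein and cholesterol genes, 3 of them in Pla2g6. It was in 33.3% each of tissue splicing regulators, signalling genes and the examples of regulated retention, and in 30.3% of RNA helicases. It was in 25.8% of windows of chromatin regulators, 23.5% of snRNP, U1-linked and spliceosome genes, 22.2% of splicing kinases and cyclins, 21.8% of ribosomal protein genes, 21.2% of SR protein genes and 12.5% of hnRNP genes. Cytochrome P450 and urea cycle genes had it in 1 of 5 windows and nuclear receptors in 0 of 5. In plasma protein genes it was in 0 of 18, for which the Wilson upper limit is 17.6%. Fn1 gave 9 and Cp 6 of these windows, so the limit rests mostly on neighbouring clusters of those genes, which it takes as independent. The lists held from 5 to 87 searched windows, and every interval but that of the plasma protein genes overlapped that of all clusters (24.2 to 27.3%). The hnRNP interval was 5.46 to 26.1%.

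Within the same genes, clusters in coding sequence held GCATG in 11.1% (9.55 to 12.9%) of windows, 14.6 percentage points below the retained-intron clusters (interval of the difference 12.2 to 16.8). Clusters in 3′ UTRs held it in 20.9% (19.3 to 22.6%), 4.81 points below (2.52 to 7.08). A window could be searched for only 1320 of the 3463 coding-sequence clusters, and for 2345 of the 2409 in 3′ UTRs. No cluster-free share was computed for coding or 3′ UTR sequence. The part of base composition and of the searched subset in these differences was not tested. Other intronic clusters mostly had no sequence to search here. The 345 that had, through exons on the opposite strand or retained introns of non-coding genes, held it in 25.8% (21.5 to 30.7%). Their difference from the retained-intron clusters was -0.088 points, with an interval from -5.19 to 4.53, and changed sign with the window and the motif.

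GCATG started more often near the cluster 5′ end than far from it. Neighbouring clusters can share a motif, which is then counted for each of them. Of 2840 clusters with 100 nt of sequence on each side of the 5′ end, 24 (0.845%) had the motif start 2 nt upstream of it, the highest single position. The mean over positions from -10 to 10 nt was 0.335% per position, from -40 to -11 nt 0.281% and from 11 to 40 nt 0.207%. Far from the cluster, 60 to 100 nt upstream and 56 to 96 nt downstream, it was 0.158%. Single positions rest on few clusters, and only the peak and the zone means are compared here.

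**Figure D5:**
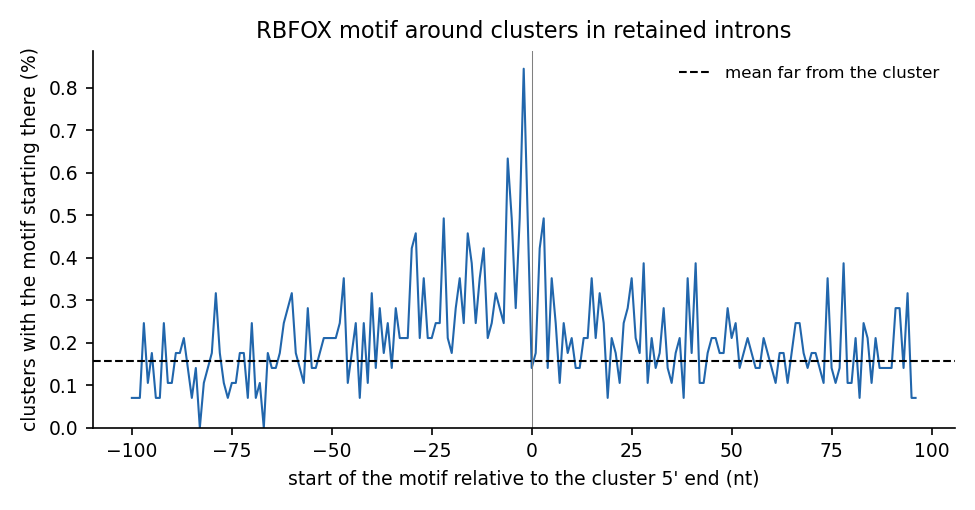
Percent of 2840 retained-intron clusters in which GCATG starts at each position (vertical axis) from 100 nt upstream to 96 nt downstream of the cluster 5′ end (horizontal axis, nt). The dashed line is the mean far from the cluster, 0.158%, and the highest point is 0.845% at -2 nt.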

How the data were processed

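The processed data were 1 list of RBFOX2 eiCLIP clusters from 3 libraries of mouse hepatocytes, a single group in the labels. The methods name 3 independent cultures, each from a pair of mice, sequenced with paired-end reads, and the labels give 3 livers. Per the methods and the submitters' processing notes, the authors processed reads with CASAVA 1.8.4 and cutadapt (reads under 18 nt dropped), aligned them with STAR 2.4.2a to GRCm38, kept unique reads, removed duplicates by random barcode, and grouped cDNA starts with Paraclu on the libraries summed. The value deposited by the authors is a whole-number count per cluster, read here as cDNA starts. It was not normalised. Size-matched input libraries were not used here, and depth per library is unknown.

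Clusters were annotated by midpoint and strand with GENCODE M21 (the study names an earlier release), which holds 21422 retained-intron transcripts. Of the 8673 clusters in exons of such transcripts of protein-coding genes, 5464 also lay in an exon of another type and were left out. Distances refer to the shortest intron of another transcript type around the midpoint, and 2 clusters lay in 2 genes. Sequence came from the annotated transcripts, laid onto genome coordinates exon by exon. Cluster-free windows were enumerated over the retained-intron sequence of genes with clusters. Shares have Wilson, densities exact Poisson and differences Newcombe intervals. The window code was checked on simulated sequences, and the Wilson interval only on planted motif shares. Coverage of the intervals was not tested, and the Poisson and Newcombe intervals were not checked. Python 3.11.15, numpy 2.4.6, scipy 1.17.1 and matplotlib 3.10.9 were used.

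Genes were named by rule: the 10 with the highest summed counts, the 10 with most clusters, those of the 5 highest clusters, 8 genes of interest to the study, and up to 4 per gene list. Not every gene that the rule names is reported here. Members and lists were chosen with earlier results of these data known. The alternatives changed the annotation rule, window, motif, count filter, merging distance and splice-site distance.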

Additional observations from a re-analysis of the deposited data

How the results depend on the processing

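Counting any base inside gave 3636 clusters, the whole cluster inside 2822 and barring exons on both strands 3164. The motif share moved from 25.7% to 16.7% with 20 nt flanks, 20.9% and 20.6% with 50 nt on each side of the midpoint or 5′ end, 14.5% for TGCATG, 4.56% for GCACG, 16.5% for CATGC, 29.6% at counts of 17 or more, 42.6% at 39 or more and 23.8% in introns spanned whole. Its excess over cluster-free windows kept its sign under every alternative run: 12.4 points in the report, 9.15 with 20 nt flanks, 10.8 around the 5′ end, 9.32 for TGCATG, 1.85 for GCACG, 4.07 for CATGC, 15.8 at 17 or more counts, 27.8 at 39 or more and 10.8 in introns spanned whole. The difference from other intronic clusters, -0.088 points, changed sign to 4.49 around the 5′ end, 1.77 for TGCATG, 1.96 for CATGC, 2.57 at 17 or more counts and 0.146 without Sorbs2, Chka and Snrnp70. The density ratio of 3.57 became 3.90 at 17 or more counts, 5.92 at 39 or more, 3.17 with clusters within 200 nt merged, 2.74 without 300 nt beside exons and 3.41 without those 3 genes. The share within 300 nt of a splice site, 58.9%, became 33.1% for 100 nt, 71.0% for 500 nt, 46.0% with the longest intron and 72.5% in introns spanned whole. The median count of 18 was 17 without the 3 genes. The cause of these shifts was not tested. Leaving out those 3 genes, keeping introns spanned whole for the motif and dropping clusters opposite an exon were chosen after seeing the data.

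The libraries were pooled before deposit, which leaves no replicate to leave out and no spread to give. No paired analysis was possible because the single list carries no library columns. Retained introns were taken from annotation, and the list holds no cluster below 10 counts, which says nothing of weaker contacts.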
